A study of Mus musculus with 384 samples.

Results

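The samples labelled pituitary (Pit), dorsal dentate gyrus (dDG) or ventral dentate gyrus (vDG) were divided by the normalised value of *Anxa2*, the gene of annexin A2, a calcium-dependent protein that binds phospholipids and actin at membranes. Of 95 such samples with values, 31 lay over 1000 (the upper range) and 64 under 1000 (the lower range), out of 380 samples with values in the whole series. The members were thus chosen by a measured value of the same libraries. For this reason differences of genes between the ranges are given as descriptions without a test, and *Anxa2* is left out of the comparison of the other 68 genes. The highest sample of the lower range had an *Anxa2* value of 298 and the lowest sample of the upper range one of 1901, so that no sample lay close to the dividing value.

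The study's methods describe frozen micropunches of male Balb/c mice. The libraries cover 12 region labels of 32 mice, which are male per the labels. The study exposed its animals to limited nesting material or early handling as pups and to social defeat or social support as adults. The sample labels instead give a status (MS or Co) and an injection (inject or naive), which form 4 label groups of 8 mice; these were not matched to the rearing and social conditions. They also give postnatal day 9 for every sample, whereas the study's methods describe adult animals, and they list Pit where these methods list the nucleus accumbens. By label, the upper range held 16 samples labelled Pit, 8 labelled dDG and 7 labelled vDG, and the lower range 16, 24 and 24. In each label group the upper range held 4 samples labelled Pit and 2 labelled dDG. It also held 2 labelled vDG in each, except in Co naive, where it held 1 of 7. What gave these counts was not tested. Each sample is one mouse and one region label, and a mouse could give up to 3 of these samples.

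Values are reads of a gene-specific amplicon divided by a size factor of the sample. The reads of a library are shared among 69 assays, so each value is relative to the other assays of its library. In a tissue sample, fewer cells of a type and less RNA per cell cannot be told apart. The pituitary is an endocrine gland outside the blood-brain barrier whose hormone-secreting cells are controlled by the hypothalamus, and it is a site of glucocorticoid feedback on the stress axis. The dentate gyrus is a hippocampal field packed with granule neurons, which receive the input from the entorhinal cortex and project to CA3. Defining markers of either tissue could not be read: of 37 marker genes of the pituitary, granule neurons, other neurons, glia, vessels, choroid plexus and meninges that were listed, 0 had an assay. Whether region labels were exchanged among samples could therefore not be settled from marker genes, and it was not tested in another way. The names Pit, dDG and vDG are used below as labels only, and differences between them are differences between labels, which may not be those of the tissues named.

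Reads per library, recovered by taking the largest step of which all values of a sample were whole multiples as 1 read, ran from 100875 to 227241 (median 155534) in the upper and from 83896 to 261007 (median 147098) in the lower range. On the log2 scale the mean was higher in the upper range by 0.11 (permutation test, two-sided, 100000 resamples, p = 0.0736), a difference that did not pass 0.05. The library labelled vDG, MS inject of mouse 83 stood apart from the other 30 of the upper range. Its root mean square distance from their mean profile was 1.43 on the log2 scale, against a median of 0.62 and a second highest value of 0.90, and it lay only slightly farther from the lower range (1.47). A Pit library of mouse 89 (MS naive) lay 1.55 from the other samples of the lower range, whose next highest distance was 1.04. Results that rest on either library are given with and without it.

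The genes whose values did not overlap between the ranges were *Anxa2* itself, *Tmem176a* and *Fscn1*. Their promoters, 250 bases before to 50 after the RefSeq start on the plus strand, are shown since *Anxa2* and *Tmem176a* were high in the same samples and *Fscn1* low. The sequences are from RefSeq on GRCm38.p6, with the GC box GGGCGG and its reverse complement CCGCCC in capitals; a half-site of the glucocorticoid receptor (AGAACA or TGTTCT) was also searched on both strands.
Anxa2, chr9:69453433-69453732: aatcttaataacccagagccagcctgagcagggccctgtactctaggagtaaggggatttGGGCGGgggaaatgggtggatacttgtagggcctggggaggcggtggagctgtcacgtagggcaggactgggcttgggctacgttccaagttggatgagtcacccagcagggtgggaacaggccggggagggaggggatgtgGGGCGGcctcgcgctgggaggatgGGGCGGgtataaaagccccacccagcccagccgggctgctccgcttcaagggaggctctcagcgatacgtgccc
Tmem176a, chr6:48841233-48841532, the first of 2 starts listed: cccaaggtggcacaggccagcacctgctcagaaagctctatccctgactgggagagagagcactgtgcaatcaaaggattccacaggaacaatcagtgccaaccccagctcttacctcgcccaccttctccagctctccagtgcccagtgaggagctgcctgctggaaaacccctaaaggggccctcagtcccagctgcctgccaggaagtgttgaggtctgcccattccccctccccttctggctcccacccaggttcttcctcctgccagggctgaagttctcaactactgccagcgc
Fscn1, chr5:142960105-142960404: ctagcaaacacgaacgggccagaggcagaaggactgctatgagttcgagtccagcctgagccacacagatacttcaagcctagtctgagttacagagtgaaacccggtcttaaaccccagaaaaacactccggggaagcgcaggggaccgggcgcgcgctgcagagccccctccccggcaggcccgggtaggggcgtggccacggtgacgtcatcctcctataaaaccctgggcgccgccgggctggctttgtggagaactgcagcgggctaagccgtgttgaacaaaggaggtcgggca
The *Anxa2* window held 3 GC boxes, and the windows of *Tmem176a* and *Fscn1* held 0. A GC box occurred in 35.7% of 32851 promoter windows of this length. The half-site was found in 0 of the 3 windows and in 19.0% of all windows. GENCODE M21 places the start of *Tmem176a* at 48840919, before its window, so this window is relative to the RefSeq start only. These matches describe the letters of the windows only.

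*Anxa2* (chromosome 9, plus strand, 69453620 to 69491795, GENCODE M21) defined the ranges. In the upper range it ran from 1901 to 21258 with a median of 2651, and in the lower range from 70.2 to 298 with a median of 159. Apart from the library of mouse 83, the highest value of the upper range was 3885. The 285 samples of the other 9 regions reached 817 at most, with region medians between 123 and 285. The lower range thus lay at the level of the other regions, and the upper range lay above all of their samples.

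*Tmem176a* (chromosome 6, plus strand, 48840919 to 48847071), a multi-pass membrane protein, followed the same division. It ran from 1305 to 5915 (median 4586) in the upper and from 131 to 396 (median 221) in the lower range. The means differed by 4.31 on the log2(value + 1) scale (SE 0.08, n = 31 and 64), and by 4.40, 4.29 and 4.06 within the samples labelled Pit, dDG and vDG. No sample of the other 9 regions reached the lowest value of the upper range. The lowest value was that of the library of mouse 83, and without it the upper range began at 3367.

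*Fscn1* (chromosome 5, plus strand, 142960343 to 142973185) encodes fascin, which bundles actin filaments. Its values were 21.9 to 142 (median 74.0) in the upper and 185 to 886 (median 447) in the lower range, a mean difference of -2.63 (SE 0.14). All 31 samples of the upper range thus lay under all 64 of the lower range. These 2 genes were 2.94% of the 68 genes compared, a share that the choice of samples by a gene of the same libraries had itself shaped.

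**Figure D1:**
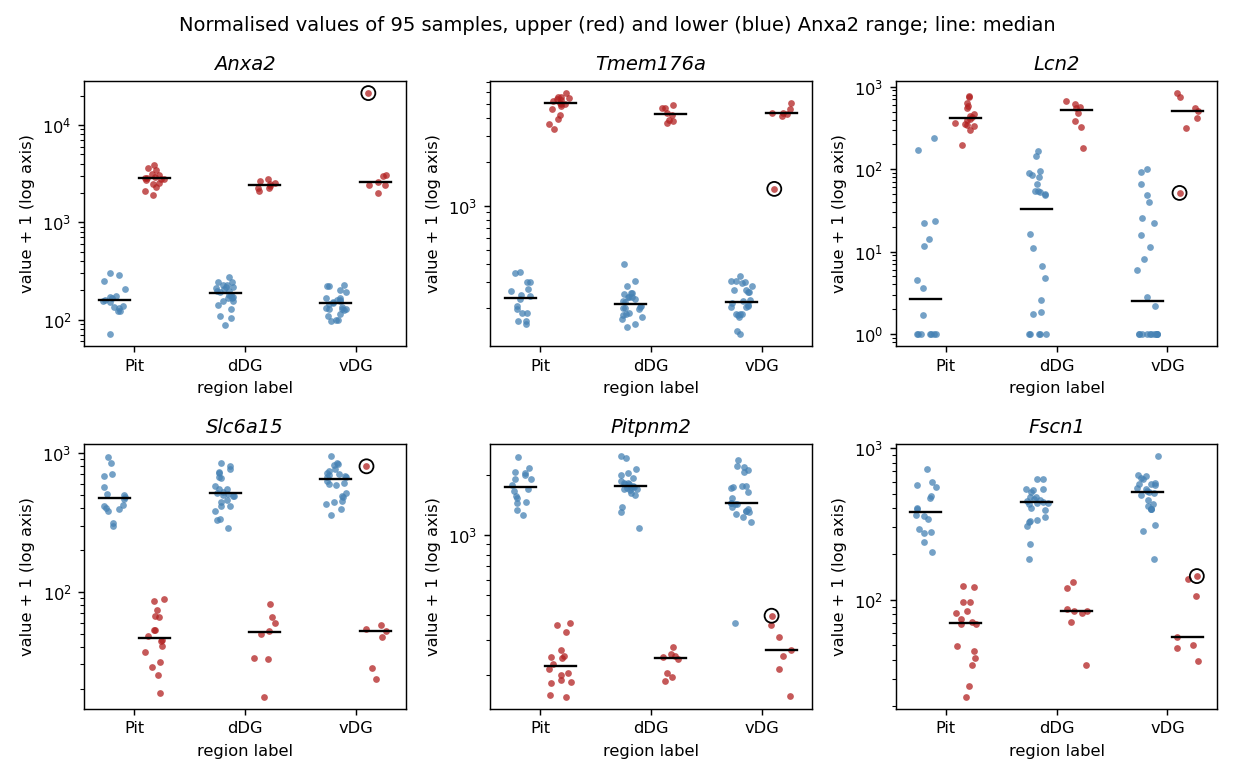
Normalised values (value + 1, log axis) of 6 genes in the 95 samples by region label, with the upper *Anxa2* range in red (16, 8 and 7 samples) and the lower range in blue (16, 24 and 24). Lines are medians and the circled point is the vDG library of mouse 83. Under every label *Anxa2* and *Tmem176a* are high in the red points and *Fscn1* is low, whereas for *Slc6a15* the circled point (800.2) lies among the blue ones.

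*Slc6a15* and *Pitpnm2* overlapped through single libraries. *Slc6a15* (chromosome 10, plus strand, 103367783 to 103419377) encodes a neutral amino acid transporter of neurons. It ran from 16.6 to 800.2 (median 48.6) in the upper and from 286 to 953 (median 522) in the lower range, and the mean difference was -3.47 (SE 0.18). The value of 800.2 belonged to the library of mouse 83, and the next highest of the upper range was 88.1. *Pitpnm2* (chromosome 5, minus strand, 124118690 to 124249760) encodes a membrane-associated phosphatidylinositol transfer protein. Its values were 154 to 394 (median 241) in the upper and 364 to 2496 (median 1714) in the lower range, with a mean difference of -2.81 (SE 0.08). The library of mouse 83 again had the highest value of the upper range, 394. Without this library, a choice made after its values had been seen, 9 of 68 genes (13.2%) did not overlap between the ranges. *Rps12*, *Rps25*, *Thbs1* and *Tmem176a* were then higher and *Atp5f1*, *Fscn1*, *Pitpnm2*, *Slc6a15* and *Spag9* lower in the upper range. For *Pitpnm2* the ranges then ended at 362 and began at 364. The value of 364 was that of the vDG library of mouse 259 (Co naive). The other vDG samples of Co naive in the lower range began at 1357, and those labelled Pit and dDG at 1267 and 1084. With all libraries kept and their totals made equal, 6 genes did not overlap.

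Over all 68 genes, the means differed by more than 1 on the log2 scale in 23 genes. In 17 of them (25% of the 68) the upper range was higher, and in 6 (8.82%) it was lower. Each of the 23 differences had the same sign within the samples labelled Pit, dDG and vDG, as did those of 59 of all 68 genes. The 23 genes were picked for a large difference in the same samples, which largely fixed this agreement. Of all 68 genes, 43 (63.2%) had a higher mean in the upper range, and the median difference was 0.26 and the median size 0.67. Counts by gene list below are to be read against this share; no list was tested. With all samples rescaled to the same total, the median difference was 0.13, a shift of -0.13 in the reference against which single genes are read, and the sign changed only for *Dpm2* and *Hmgxb3*.

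Among the genes with a role in immune and inflammatory processes, 4 of 6 with an assay had a higher mean in the upper range and 2 a lower one, with a median difference of 0.99, against 43 of 68 and 0.26 over all genes. *Lcn2* (chromosome 2, minus strand, 32384633 to 32388252), a secreted lipocalin that binds iron-carrying siderophores, was at or near 0 in many samples of the lower range. Its values were 50.5 to 836 (median 445) in the upper range. In the lower range they were 0 to 238 (median 4.38), and 23 of 64 samples were at 0. The mean difference was 5.88 (SE 0.37) with a pseudocount of 1, 7.20 with 0.1 and 4.22 with 10, so its size depended on this choice. With a pseudocount of 10 it was slightly under that of *Tmem176a* (4.25). The lower range was uneven for this gene: samples labelled dDG had a median of 31.6, against 1.66 in those labelled Pit and 1.5 in those labelled vDG. *Rfx5*, a transcription factor of the class II major histocompatibility genes, had a median of 191 in the upper and 58.1 in the lower range, and its mean difference was 1.71 (SE 0.17). *Zap70*, a kinase of T cell receptor signalling, differed in the other direction. It was at 0 in 14 of 31 samples of the upper range (median 0.94, highest 25.7) and had a median of 38.2 in the lower range. The mean difference was -3.39 (SE 0.34), and -4.95 and -1.64 with a pseudocount of 0.1 and 10. *Tnf*, listed as TNF, was at 0 in 16 of 31 and 52 of 64 samples.

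Of genes outside the lists, the NF-kB subunit gene *Rela*, listed as RELA, had a median of 403 in the upper and 141 in the lower range and a mean difference of 1.56 (SE 0.10). *Cdkn1a*, listed as CDKN1A, encodes the cell cycle inhibitor p21. Its medians were 44.7 and 24.0 and its mean difference was 1.46 (SE 0.26), with a highest value of 400.1 in the library of mouse 83 and 145 in the rest of the upper range.

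In the list of glycosylation, lysosome and extracellular matrix genes, 3 of 4 were higher in the upper range, with a median difference of 0.73. *Thbs1* encodes thrombospondin, a matrix glycoprotein. It ran from 50.5 to 373 (median 171) in the upper and from 0 to 53.3 (median 16.8) in the lower range, and the mean difference was 3.53 (SE 0.21), and 3.87 and 2.76 with a pseudocount of 0.1 and 10. *St6galnac4*, a sialyltransferase, was the one member that was lower, by a mean difference of -0.73 (SE 0.09).

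All 4 genes of the cytosolic ribosome and translation had a higher mean in the upper range (median difference 0.93). *Rps12* and *Rps25* encode proteins of the small ribosomal subunit. *Rps12* had a median of 38841 in the upper and 15887 in the lower range, a difference of 1.27 (SE 0.06), and *Rps25* medians of 8624 and 4321, a difference of 0.99 (SE 0.06). *Rps2* differed by 0.88 (SE 0.18). The difference of *Abcf1* was about as large as its error (0.18, SE 0.18) and had opposite signs by label, with 0.30 within Pit, 0.89 within dDG and -1.31 within vDG. Among 5 mitochondrial genes, 2 were higher and 3 lower (median difference -0.02). *Atp5f1*, a subunit of the ATP synthase, had medians of 6882 and 10783 and differed by -0.62 (SE 0.04). Of 4 genes of purine and heme synthesis and iron storage, 2 were higher and 2 lower, with a median difference of -0.04. The purine synthesis enzyme *Gart* had medians of 575 and 205 and differed by 1.47 (SE 0.07). *Fth1*, the ferritin heavy chain, had medians of 19663 and 34993 and differed by -0.87 (SE 0.11).

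Transporters and lipid-handling genes moved in both directions. Of 3 transporters, *Slc7a7*, which exports cationic amino acids in exchange for neutral ones, had a higher mean (medians 76.9 and 27.5, difference 1.87, SE 0.26), *Slc6a15* a lower one, and *Slco3a1* had medians of 191 and 197. Its difference was -0.03 (SE 0.09). Of 3 genes of phosphoinositide and lipid handling, *Abhd5*, a co-activator of triglyceride lipase, had medians of 209.5 and 82.8, and *Mtmr3* medians of 401 and 346, whereas *Pitpnm2* was lower. Among 7 genes of the ubiquitin pathway and proteasome, 3 were higher and 4 lower (median difference -0.05). *Nedd4l*, a ubiquitin ligase that acts on ion channels, had medians of 778 and 2388 and a difference of -1.62 (SE 0.08). *Peli1*, a ubiquitin ligase of interleukin-1 and Toll-like receptor signalling, differed by -0.72 (SE 0.08).

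Of 6 kinase and signalling genes, 3 were higher and 3 lower (median difference 0.07). *Mob3a*, of a family of kinase activators, had medians of 60.8 and 9.57 and a difference of 2.76 (SE 0.21), and of 3.22 and 1.85 with a pseudocount of 0.1 and 10. *Spag9*, a scaffold protein of JNK signalling, had medians of 485 and 991 and a difference of -1.0 (SE 0.06). Of 5 chromatin and zinc finger genes, 4 were higher and 1 was lower (median difference 0.34). *Zfp641*, a zinc finger gene, had medians of 161 and 52.1 and a difference of 1.73 (SE 0.18). *Hist1h2al* is annotated as a processed pseudogene that may share reads with other histone genes, so its medians of 137 and 51.8 are uncertain. Of 4 genes of transcription, splicing and RNA, 3 were higher and 1 was lower (median difference 0.23), and of 2 chaperones 1 was higher and 1 lower. *Nr3c1*, the glucocorticoid receptor, ran from 185 to 831 (median 516) in the upper and from 242 to 716 (median 392) in the lower range. These values overlapped widely, and the mean difference was 0.33 (SE 0.10). *Fkbp5*, a co-chaperone of this receptor that glucocorticoids induce, was picked after its values had been seen. It had medians of 375 and 157.

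By the mouse numbers in the labels, samples of both ranges came from the same animals. These numbers belong to the same labels as the regions, and whether labels were exchanged was not tested. Of 32 mice, 9 had no sample in the upper range, 16 had 1, 6 had 2 and 1 had all 3, so that 22 mice had samples in both. Within these 22 mice, the difference between the ranges was between 3.42 and 4.93 on the log2 scale for *Tmem176a*, between -4.62 and -2.46 for *Slc6a15*, between -3.58 and -2.09 for *Pitpnm2* and between 1.38 and 9.55 for *Lcn2*. The sign was thus the same in 22 of 22 mice for these genes. They were given as markers or named for a large difference in the same samples. For *Tmem176a*, whose ranges did not overlap, the sign could not vary. Other genes were divided, such as *Dpm2* and *Hsp90aa1* (each positive in 11 and negative in 11 mice) and *Abcf1* (13 and 9). For *Nr3c1* it was positive in 16 and negative in 6 mice.

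The first principal component of the 68 genes held 54.9% of the variance of the 95 samples, and the second held 7.33%. On the first component, samples of the upper range lay between 2.82 and 10.2 and those of the lower range between -7.50 and -0.49. The value of 2.82 was that of the library of mouse 83, and the other 30 samples began at 7.48. Within either range no gene with a median of at least 100 was split by an empty stretch wider than 1 (log2) with 4 or more samples to either side. The widest such stretch was 0.44 in the upper and 0.41 in the lower range.

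**Figure D2:**
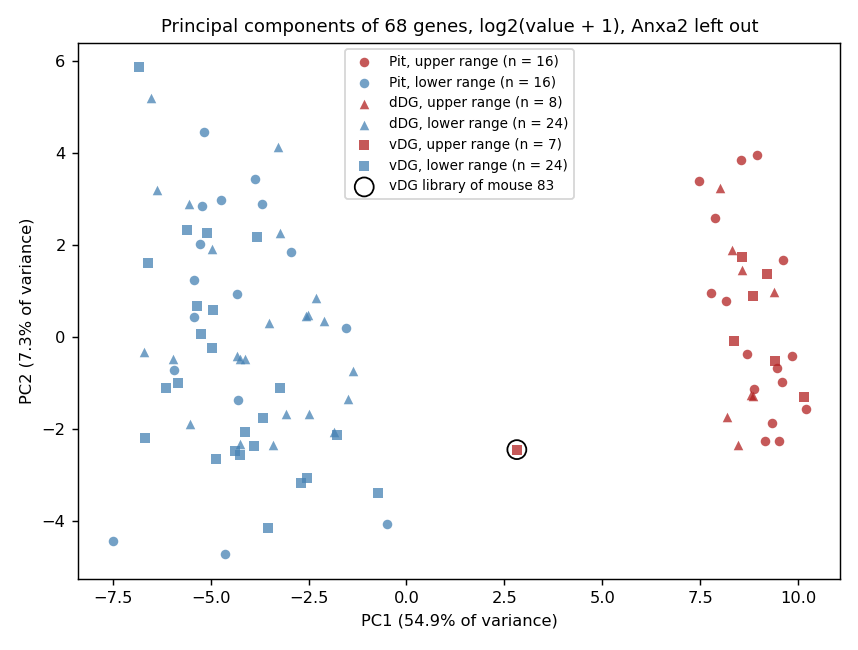
First and second principal component of log2(value + 1) of 68 genes in 95 samples, without *Anxa2*. Symbols give the region label and colours the *Anxa2* range, and the circled square is the vDG library of mouse 83. The ranges separate along the first axis, and the 3 labels are mixed within each range.

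Which tissue a range resembled was asked by comparing each sample with the mean profile of each of the other 9 regions over the 68 genes. These correlations run across genes and are descriptions. In the lower range, mean Pearson's r lay between 0.941 for the amygdala (AMY) and 0.958 ± 0.012 (SD, n = 64) for dorsal CA3 (dCA3). The nearest profile was dCA3 in 33 and the label CER in 18 of 64 samples. In the upper range, mean r lay between 0.853 for the prefrontal cortex (PFC) and 0.863 ± 0.013 (SD, n = 31) for the label BNST. Each sample was compared with all 9 regions, so this SD among samples does not measure the spread of the differences between regions. BNST was nearest in 13 and dCA3 in 11 of 31 samples. The upper range correlated with the mean profile of the lower range at 0.851 on average, and with the other samples of its own range at 0.974. Only the library of mouse 83 was closer to one of the 9 regions than to its own range. On this measure the 9 regions were close together for the upper range. With profiles centred on the mean of the 9 regions, a measure added after seeing the data, they were further apart: mean r of the upper range was 0.268 ± 0.044 (SD, n = 31) for ventral CA3 (vCA3), 0.258 ± 0.104 for CER and 0.234 ± 0.103 for dCA3, at most 0.004 for the other regions, and lowest for dorsal CA1 (dCA1) at -0.404 ± 0.031. The lower range had its highest means for the same 3 labels, 0.382 ± 0.195 for dCA3, 0.362 ± 0.168 for CER and 0.231 ± 0.112 for vCA3 (SD, n = 64). The median size of the difference of a gene from a region mean was 0.71 to 0.88 on the log2 scale in the upper range and 0.38 to 0.61 in the lower range, compared with 0.06 to 0.48 among the 36 pairs of the other regions. No pituitary or dentate profile other than these samples themselves was available for comparison here.

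**Figure D3:**
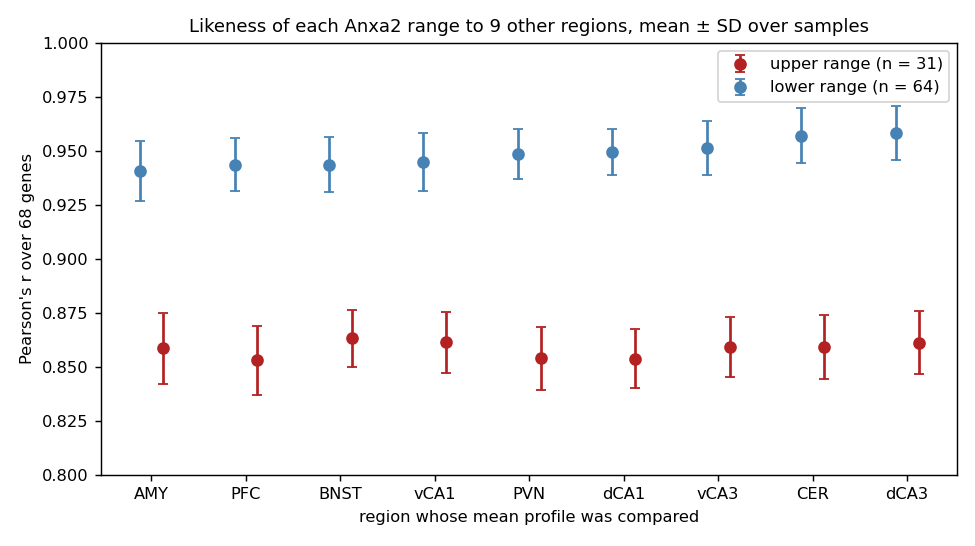
Pearson's r over 68 genes between samples and the mean profile of each of 9 other regions, as mean ± SD over 31 samples of the upper (red) and 64 of the lower range (blue); the vertical axis starts at 0.8. The blue means lie between 0.941 and 0.958 and the red means between 0.853 and 0.863.

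Over all 68 genes, the median of the upper range alone lay more than 1 (log2) outside the span of the 9 region medians in 14 genes, that of the lower range alone in 2, both in 1 and neither in 51. With any distance outside counted, the numbers were 19, 9, 25 and 15. The 23 genes described next were picked for their gap between the ranges, which itself bears on these counts. Of the 23 genes with a difference over 1, the median of the upper range lay more than 1 (log2) outside the span of the 9 region medians in 12 genes in which that of the lower range did not. These were *Fscn1*, *Gart*, *Lcn2*, *Nuak2*, *Rela*, *Rfx5*, *Rps12*, *Slc6a15*, *Slc7a7*, *Thbs1*, *Tmem176a* and *Zfp641*. The reverse was found for *Nedd4l* and *Pitpnm2*. For *Pitpnm2* the 9 region medians ran from 237 to 392, which included the upper range (241) and lay well under the lower range (1714). For *Nedd4l* they ran from 623 to 925, again with the upper range inside (778) and the lower range above (2388). In *Fkbp5* both ranges lay above the highest region median of 68.7. In the remaining 8 genes neither range lay more than 1 outside. For *Slc6a15* the region medians of 364 to 584 included the lower range, and the upper range lay below them.

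**Figure D4:**
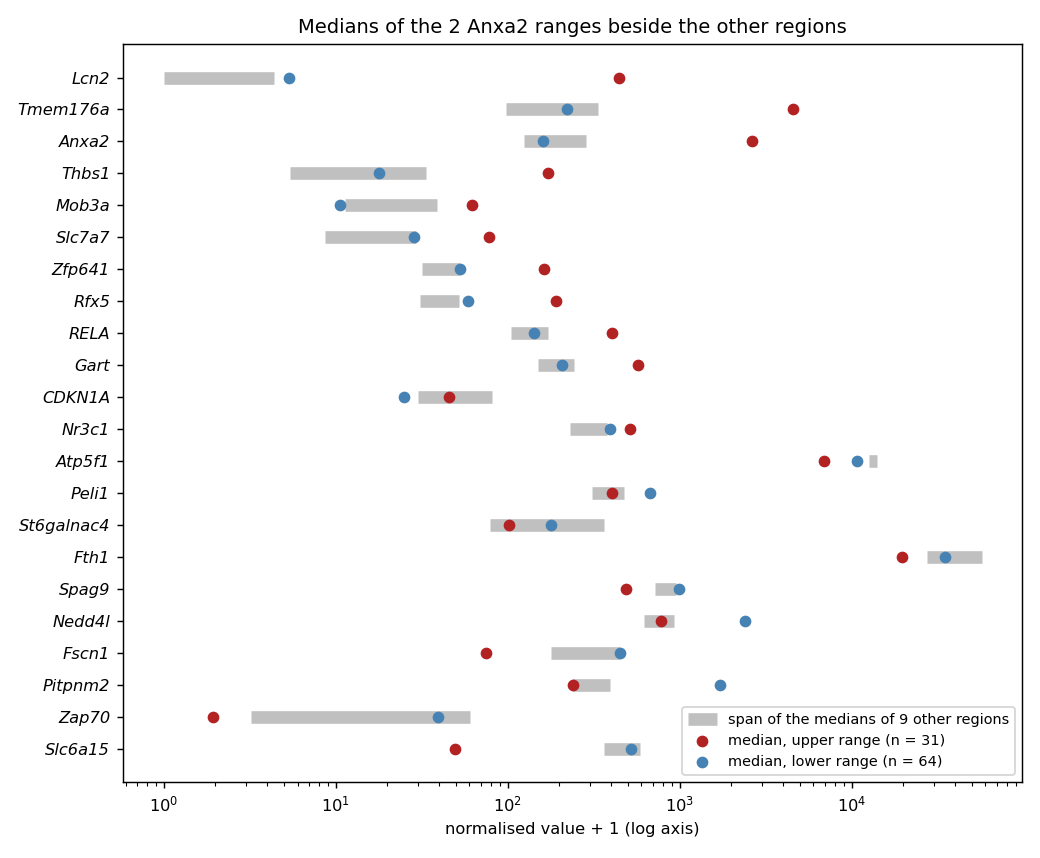
Medians of the upper (red, n = 31) and the lower (blue, n = 64) *Anxa2* range for the 22 genes named by rule, as value + 1 on a log axis, with a grey bar from the lowest to the highest median of 9 other regions. The red point leaves the bar for most of the genes with large differences, such as *Tmem176a* (4586), whereas for *Pitpnm2* and *Nedd4l* the blue point does (1714 and 2388).

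The region label had not been used to choose the ranges, so it could be tested within them. Tests used limma with the label group as a covariate and Benjamini-Hochberg adjustment over 68 genes at a threshold of 0.1. Where the *Anxa2* range was ignored, samples labelled Pit differed from those labelled dDG and vDG in 21 of 68 genes (30.9%), 12 higher and 9 lower, with the smallest adjusted p of 0.0109. With the range as a covariate, 3 genes (4.41%) remained past the threshold, namely *Abcf1* (difference 0.55, SE 0.15, adjusted p = 0.0265), *Nr3c1* (0.25, SE 0.08, adjusted p = 0.0892) and *Rps12* (0.16, SE 0.06, adjusted p = 0.0892). The upper range made up a larger share of the samples labelled Pit (50% of 32) than of those labelled dDG (25% of 32) or vDG (22.6% of 31). *Tmem176a* was among the 21 genes (difference 1.26, SE 0.43, adjusted p = 0.0284).

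Within the upper range, 1 of 68 genes (1.47%) differed between the samples labelled Pit and those labelled dDG and vDG. This was *Abcf1* (chromosome 17, minus strand, 35956819 to 35969761), an ATP-binding cassette protein of translation initiation, with a difference of 0.88 (SE 0.22, limma adjusted p = 0.0236). Its medians were alike under Pit (199) and dDG (203), and only that under vDG was low (62.7). Without the vDG library of mouse 83, 1 gene passed, with a smallest limma adjusted p of 0.0490. In the lower range the same comparison gave 0 genes (0%), with 7 genes at an unadjusted p under 0.05 and a smallest adjusted p of 0.164. Leaving out a single library (Pit of mouse 103 or 237, dDG of mouse 79 or vDG of mouse 105) gave 1 gene, *Akt1*.

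Between the dentate labels, *Abcf1* was again the 1 gene (1.47%) that passed in the upper range. Its values were 123 to 242 (median 203) in 8 samples labelled dDG and 32.0 to 111 (median 62.7) in 7 labelled vDG, which did not overlap. The difference was 1.60 (SE 0.31, limma adjusted p = 0.00136). Samples labelled Pit ran from 89.3 to 349 (median 199). In the lower range *Abcf1* differed in the opposite direction, with 46.6 to 188 (median 107) in 24 samples labelled dDG and 95.7 to 321 (median 153) in 24 labelled vDG, a difference of -0.61 (SE 0.14, limma adjusted p = 0.00598). These values overlapped. A test of the difference itself, which was added after these values had been seen, gave 2.21 (SE 0.32, limma adjusted p = 3.13e-08), and 2.15 (SE 0.33, adjusted p = 2.28e-07) without the library of mouse 83. It called 2 genes (2.94%), the other being *Rps25* (0.48, SE 0.15, limma adjusted p = 0.0725), which no longer passed without that library.

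**Figure D5:**
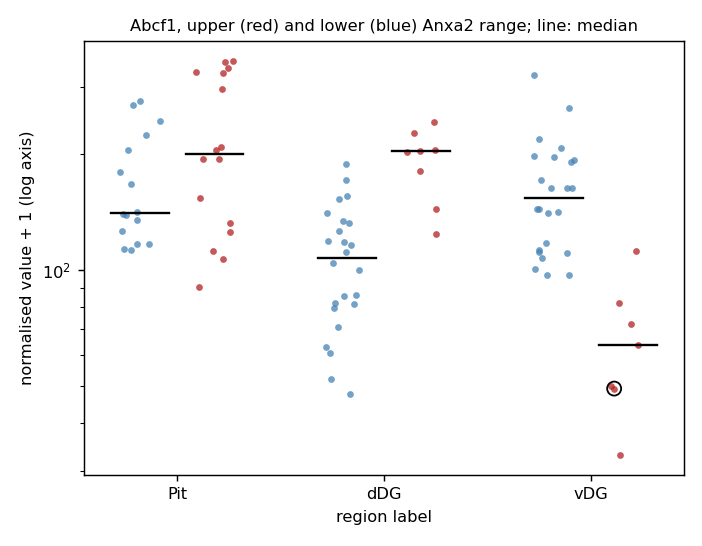
Normalised value + 1 of *Abcf1* (log axis) by region label in the upper (red) and lower (blue) *Anxa2* range, with medians as lines and the vDG library of mouse 83 circled. In the red points dDG (median 203) lies above vDG (62.7), and in the blue points vDG (153) lies above dDG (107).

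In the lower range, 5 genes (7.35%) differed between dDG and vDG, 3 of them higher and 2 lower in dDG. *St6galnac4* (0.35, SE 0.12, limma adjusted p = 0.0682) and the mitochondrial gene *Higd1a* (0.23, SE 0.08, adjusted p = 0.0758) were among the higher ones. *Abcf1* and *Fam117b* (-0.43, SE 0.14, limma adjusted p = 0.0664) were lower. The count fell to 2 genes, *Abcf1* among them, without the dDG library of mouse 79, 89, 227 or 239 or the vDG library of mouse 251 or 259. Without the dDG library of mouse 247 or 259 or the vDG library of mouse 79 or 233, 3 genes passed, and without the vDG library of mouse 105, 9 genes did.

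Whether the difference between the ranges depended on the label status or the label injection was tested in one fit over the 95 samples. For injection, 0 of 68 genes passed (0%), with 1 gene at an unadjusted p under 0.05 and a smallest limma adjusted p of 0.79. For status, 1 gene (1.47%) passed, *Nuak2*, a kinase related to AMPK (-1.36 for MS against Co, SE 0.38, limma adjusted p = 0.0422). In the upper range its values were 0 to 44.8 (median 11.4) in 16 MS samples and 9.31 to 46.2 (median 22.2) in 15 Co samples, and in the lower range 28 of 32 MS and 30 of 32 Co samples were at 0, so that the lower range lay near the level of a few reads. It did not pass without the library of mouse 83, which was at 0 (difference -1.15, SE 0.36, limma adjusted p = 0.135), nor with a pseudocount of 0.1.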

How the data were processed

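The authors deposited a table of a normalised signal, namely the reads of each TruSeq Targeted RNA assay divided by a DESeq2 size factor of the sample. Per the study's methods, reads with a phred score under 20 or a length under 25 were removed with PRINSEQ lite 0.20.4 and the rest were aligned with BWA 0.7.12 to the assay manifest. The submitters' processing notes name mm10, FastQC, BWA and DESeq2. All 26220 values were whole multiples of 1 step per sample (tolerance 0.01 of a step), and reads per library were estimated by taking this step as 1 read. With 69 assays a sample has few low values, so that the step could not be shown to be 1 read, and the estimated depths depend on it. They are amplified reads and give counting error only.

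The members and gene lists were chosen with earlier results of these data known. Values were transformed to log2(value + 1). Genes were named by a rule: those given with the samples, those without overlap, the 10 largest differences in each direction (median of 20 or more in either range), *Nr3c1*, and up to 5 called genes per test. Other members of the lists were named after their values had been seen. One gene is not reported here. limma 3.58.1 (R 4.3.3) was used with label group as a covariate. In a simulation in which 15 of the 68 genes differed 2-fold, limma recovered 90.7% of them in the upper and 88.7% in the lower range for Pit against dentate labels (20 rounds), and 5.56% and 11.9% of the calls were false. Replicates are separate mice, and samples with 1 mouse number come from the same animal per the labels. Same-mouse pairs deviated from their range and label means with a median correlation of -0.01 over genes (94 pairs), compared with -0.01 for other pairs. Other steps ran in Python 3.11.15 with pandas 2.3.3 and numpy 2.4.6, and figures were drawn with matplotlib 3.10.9. Positions are from GENCODE M21 (GRCm38).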

Additional observations from a re-analysis of the deposited data

Results flagged for a closer look

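Single samples far from the others of their set were sought among 22 named genes and reads per library in 18 sets of 4 to 8 samples of 1 range (by region label and, for larger sets, label group). A sample stood apart in 35 of 414 set and measure pairs; chance alone gives about 1 in 20. Of these, 10 belonged to the library labelled vDG, MS inject of mouse 83 in the upper range. Its *Anxa2* value of 21258, *Fth1* value of 72552, *Atp5f1* value of 12723, *Slc6a15* value of 800.2 and CDKN1A value of 400.1 lay far above the other 6 vDG samples of the range. Its values of *Tmem176a* (1305), *Lcn2* (50.5), *Zfp641* (34.0), *Rfx5* (29.3) and *Gart* (251) lay far below them.

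In the upper range, other samples apart were labelled Pit. *Fth1* was low in mouse 85 of MS inject (9170) and high in mouse 239 of Co naive (27648), *Slc6a15* was low in mouse 91 of MS naive (17.8) and *Zfp641* in mouse 233 of Co inject (66.5).

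In the lower range under the label Pit, *Lcn2* was high in mouse 103 of MS naive (170) and mouse 227 of Co naive (238), against at most 0.70 in the other samples of both sets. *Mob3a* was high in mouse 93 of MS inject (53.9) and *Gart* in mouse 249 of Co inject (249.5), while *Zap70* in mouse 89 of MS naive and *Slc7a7* in mouse 237 of Co inject were at 0. Under the label dDG, *Mob3a* was high in mouse 93 of MS inject (27.4) and at 0 in mouse 235 of Co inject, CDKN1A was at 0 in mouse 255 of Co naive, *Zfp641* was low in mouse 95 of MS inject (22.7) and *Fth1* in mouse 89 of MS naive (13992). Under the label vDG, *Pitpnm2* was high in mouse 91 of MS naive (2370) and low in mouse 259 of Co naive (364), which also had a low *Nedd4l* (1067). *Zap70* was low in mouse 87 of MS naive (10.4), *Slc7a7* was at 0 in mouse 85 of MS inject and at 0.83 in mouse 241 of Co naive, *Mob3a* was at 0 in the same library of mouse 241, CDKN1A was low in mouse 253 of Co naive (2.36), and *Thbs1* in mouse 247 and *Rfx5* in mouse 249 of Co inject were at 0.

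A test of the difference itself passed the threshold for 3 genes. The difference dDG minus vDG changed between the ranges (upper minus lower) by 2.21 for *Abcf1*, for which it was 1.60 in the upper and -0.61 in the lower range, and by 0.48 for *Rps25* (0.39 and -0.09). The difference between the ranges was smaller in MS than in Co for *Nuak2* (-1.36). Without the vDG library of mouse 83, *Abcf1* passed (2.15) and *Rps25* and *Nuak2* did not. These came from limma fits of all 95 samples.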

How the results depend on the processing

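In 22 named genes, the difference between the ranges kept its sign under every other pseudocount, scaling, region label and read minimum. It also did so without the libraries of mouse 83 (vDG) and mouse 89 (Pit), and leaving these out was decided after seeing the data. The named genes included *Anxa2*, which defined the ranges, and most others were picked for a large difference in the same samples. This choice largely fixed their signs. Of all 68 genes, 59 had the same sign within the samples labelled Pit, dDG and vDG. With rescaled totals, the sign changed for *Dpm2* and *Hmgxb3*. No member library had under 50000 recovered reads. With 5 principal components of the residuals, which leave each difference as it is and only lower the spread around it, 2 genes passed for Pit against dentate labels in the upper and 12 in the lower range, 36 in all samples, 6 for dDG against vDG in the upper and 31 in the lower range, and 4 and 1 for the dependence on status and injection. At an adjusted p of 0.05, 11 genes passed for Pit against dentate labels in all samples and 2 for dDG against vDG in the lower range. With the range as a covariate and the threshold of 0.1, 3 genes passed in all samples. With rescaled totals, 3 genes passed for dDG against vDG in the lower range, 2 for status, and 6 genes did not overlap between the ranges. For status, 0 genes passed with a pseudocount of 0.1, with genes of a mean value of at least 10, or without the vDG library of mouse 83. Without that library, 1 gene passed for the difference of dDG and vDG between the ranges, and 9 genes did not overlap (10 without both libraries). Mean r of the upper range with BNST was 0.832 as Spearman's rho, 0.814 with genes of a mean value of at least 10, 0.886 without *Tmem176a*, *Pitpnm2* and *Slc6a15*, and -0.047 with profiles centred on the mean of the 9 regions. The region most often nearest to the upper range was vCA1 with Spearman's rho (19 of 31 samples), BNST with genes of a mean value of at least 10 (19), and vCA3 with the last 2 settings (18 and 16). That of the lower range with dCA3 was 0.945 and 0.382 with genes of a mean value of at least 10 and with centred profiles, and dCA3 stayed the most often nearest under these. With CER, dCA3 and vCA3 each divided by *Ociad2* (over or under 1200), the nearest profile was most often the dCA3 samples with high *Ociad2* (29 of 64) for the lower range and BNST (16 of 31) for the upper range. What caused these changes was not tested.

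A fit that took the mouse given by the label as the replicate block gave counts of 1 and 0 for Pit against dentate labels in the upper and lower range. They were 1 and 5 for dDG against vDG, 21 in all samples, and 1 and 0 for status and injection. Pairing by these mouse numbers thus changed no count. Leaving out each sample in turn gave 1 gene throughout for both comparisons in the upper range, 0 to 1 for Pit against dentate labels and 2 to 9 for dDG against vDG in the lower range, and 15 to 25 in all samples. Count models (edgeR and DESeq2) were not run, since the step taken as 1 read could not be shown to be so with 69 assays, and the tests rest on the deposited normalised values. Marker genes without an assay, the low reads of *Nuak2* in the lower range and 7 or 8 samples under a dentate label in the upper range limit these comparisons.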
